A study of Bos taurus with 16 samples.

Results

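HBEGF (ENSBTAG00000021766), PDGFD (ENSBTAG00000034827), IGFBP6 (ENSBTAG00000021467) and TRH (ENSBTAG00000005306) encode secreted proteins of 4 kinds, and they were followed here through 16 RNA-seq libraries of bovine articular chondrocytes. They are 4 of the 19454 genes counted. They were chosen by their difference between shCreb5 and shScramble cells in these same libraries, so everything below that compares the shRNAs is a description of these genes and carries no test for them. Their response to TGFβ2 comes from another contrast and was tested. For TRH that contrast is not free of the choice. TRH was too low in condition A to pass the filter on low counts for the knockdown, so choosing it by the knockdown favours high counts in condition AB.

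The cells came from the superficial zone of the femoropatellar cartilage of the knee, from 4 calves 1 to 2 weeks old. Cells of each calf were infected with a lentivirus carrying either a scrambled shRNA (shScramble) or a single shRNA against Creb5 (shCreb5), a transcription factor of the superficial zone, and infected cells were selected in 0.8 µg/ml puromycin for 5 days. They were then replated on low attachment plates for 48 hours in medium with serum and either 100 ng/ml TGFα (condition A) or 100 ng/ml TGFα plus 20 ng/ml TGFβ2 (condition AB). This gave 4 groups of 4 libraries, with every calf in every group, and no group without TGFα. Library totals ran from 14710867 to 21853634 estimated counts, with a median of 19721435, and the median in shCreb5 cells in condition AB was 17295053.5.

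HBEGF is made as a membrane protein and, once shed by metalloproteases, activates the EGF receptor, the same receptor that TGFα in the medium binds. PDGFD is a ligand of PDGF receptor beta that must be cleaved by a protease to become active. IGFBP6 binds insulin-like growth factors, with a preference for IGF2, and keeps them from their receptor. TRH is the precursor of thyrotropin-releasing hormone, a short amidated peptide best known from the hypothalamus. TGFβ and EGF receptor signals both act on the superficial zone of cartilage, where the lubricating protein PRG4 is made.

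The target of the shRNA was read first. CREB5 stood at 124, 70.4, 78.9 and 106 CPM (counts per 1000000 after TMM scaling) in calves 1 to 4 in shScramble cells in condition A, and at 86.5, 44.5, 58.5 and 72.3 CPM in shCreb5 cells. In condition AB the values were 82.6, 58.7, 62.2 and 77.3 CPM with shScramble and 42.5, 36.0, 31.4 and 35.7 CPM with shCreb5. CREB5 was lower with shCreb5 in every calf in both conditions. The fitted log2 fold change was -0.54 (SE 0.08, edgeR adjusted p = 0.337) in condition A and -0.96 (SE 0.10, edgeR adjusted p = 0.124) in condition AB. DESeq2, also with the calf as a covariate, gave adjusted p = 6.99e-05 and 1.02e-08. With shCreb5, CREB5 was still read at 445 to 1871 counts. CREB5 also fell with TGFβ2 over both shRNAs (log2 fold change -0.54, SE 0.09, edgeR adjusted p = 0.0049, lower in 8 of 8 pairs of libraries). The 8 pairs are 4 calves counted once with each shRNA and are not 8 independent replicates. The share of all genes with 8 of 8 pairs in 1 direction was not counted for TGFβ2, so counts of pairs are a description here and below.

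Cell identity could be checked in part, because gene symbols were at hand for 3 of 12 chondrocyte markers. COL11A1, a collagen of cartilage fibrils, was at 4670.1 CPM ± 4562 (SD, n = 4) and HAPLN1, which links aggrecan to hyaluronan, at 3416 CPM ± 2752 (SD, n = 4) in shScramble cells in condition A. CHAD, a matrix protein that binds collagen, was much lower, at 10.39 CPM ± 11.003 (SD, n = 4). CHAD rose with TGFβ2 by a log2 fold change of 2.31 (SE 0.21, edgeR adjusted p = 0.000556, higher in 8 of 8 pairs), while COL11A1 (0.74, adjusted p = 0.0554) and HAPLN1 (0.13, adjusted p = 0.526) did not pass. Within shCreb5 cells COL11A1 did pass (1.11, edgeR adjusted p = 0.0101, higher in 4 of 4 calves). Within shScramble cells it did not (0.47, edgeR adjusted p = 0.3). PRG4 was at 11411 CPM ± 6217 (SD, n = 4) in the same libraries. It rose with TGFβ2 by a log2 fold change of 1.96 (SE 0.17, edgeR adjusted p = 0.000543, higher in 8 of 8 pairs), although DESeq2 gave adjusted p = 0.0768. Calf 2 stood apart, with the highest COL11A1, HAPLN1 and CHAD and the lowest PRG4 in each of the 4 groups (11287, 7446, 26.8 and 4247 CPM in shScramble cells in condition A). Between the shRNAs PRG4 gave -0.63 in condition A (edgeR adjusted p = 0.502, DESeq2 adjusted p = 8.77e-07) and -0.65 in AB (edgeR adjusted p = 0.584, DESeq2 adjusted p = 0.302), and was higher with shCreb5 in 1 of 8 pairs. COL2A1, ACAN and SOX9 were not analysed here.

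**Figure D1:**
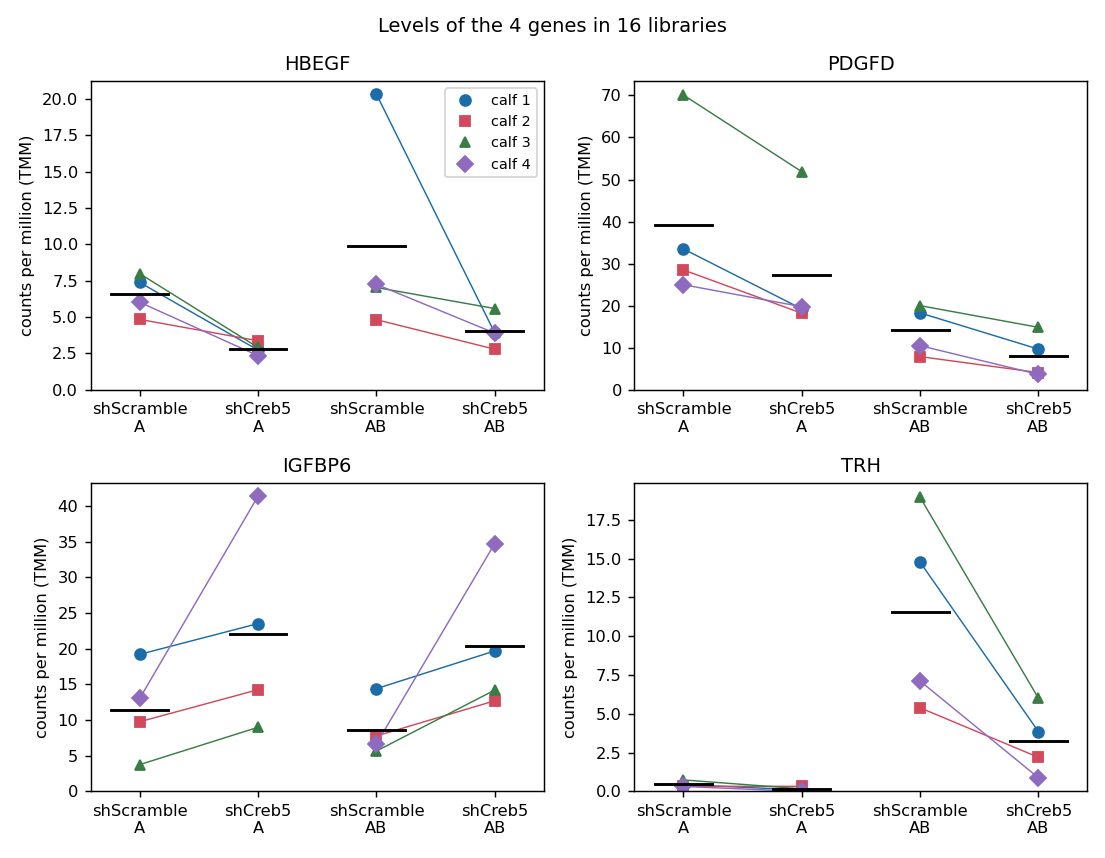
Level of each gene in CPM (vertical axis, from 0) in the 4 groups (horizontal axis). Each point is a library, shaped and coloured by calf, thin lines join the shScramble and shCreb5 libraries of a calf in a condition, and black bars are group means (n = 4). TRH lies near 0 in condition A, PDGFD is lower in condition AB, and IGFBP6 is higher with shCreb5 in each calf.

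TRH was nearly silent with TGFα alone and was raised when TGFβ2 was added. In shScramble cells in condition A it had 11, 7, 14 and 7 counts in calves 1 to 4, which is 0.441, 0.332, 0.740 and 0.319 CPM. In condition AB the same calves had 314, 104, 345 and 108 counts, or 14.8, 5.39, 18.9 and 7.11 CPM. The groups did not overlap, and calves 1 and 3 reached the highest levels. In shCreb5 cells the counts were 2, 7, 3 and 0 in condition A and 69, 41, 85 and 14 in condition AB, or 3.85, 2.20, 6.01 and 0.880 CPM. These groups did not overlap either, and calf 4 was the lowest in both. The share of all genes whose groups do not overlap was not counted, so overlap is given here and below only as a description. For calf 4, where 0 counts allow up to 3 counts or 0.135 CPM, the level in condition AB was 6.52 times that limit. The 14 counts in condition AB were taken as exact here, so 6.52 is not a lower bound on the rise.

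Over both shRNAs, with the libraries of a calf and condition summed so that a calf counts once, the log2 fold change of TRH with TGFβ2 was 4.57 (SE 0.26, edgeR adjusted p = 0.000112), a 23.7-fold rise seen in 4 of 4 calves. Of the 13632 genes tested, 15.6% were called higher and 15.1% lower, at an adjusted p under 0.05. With no filter on low counts TRH gave 4.56 (adjusted p = 1.71e-06). In shScramble cells alone the log2 fold change was 4.63 (SE 0.21, edgeR adjusted p = 3.54e-05, higher in 4 of 4 calves), against a background of 10.7% called higher and 9.15% called lower. In shCreb5 cells alone it was 4.34 (SE 0.51, edgeR adjusted p = 0.00135, higher in 4 of 4 calves), where 15.9% of genes were called higher and 14.5% lower, and without calf 2 it was 5.31. The tests within a shRNA share their libraries with the contrast that chose the genes. Whether the responses differ between the shRNAs was not tested, since that difference equals the difference of the knockdown effects. Because TRH started from 0 to 14 counts, its fold change depends on few counts in condition A: summed counts, scaled by the TMM library sizes, gave a ratio of 26.2 (871 against 39 counts before scaling, exact 95% interval 19.0 to 37.2) with shScramble and of 21.8 (209 against 12 counts before scaling, 12.2 to 42.9) with shCreb5. These intervals cover counting error only, as does the limit for a count of 0.

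PDGFD moved the other way and fell with TGFβ2 under either shRNA. In shScramble cells it was at 33.5, 28.5, 70.1 and 25.0 CPM in calves 1 to 4 in condition A and at 18.3, 7.87, 20.0 and 10.5 CPM in condition AB. The groups did not overlap, and calf 3 was the highest in both. In shCreb5 cells the levels were 19.2, 18.2, 51.9 and 19.7 CPM in condition A and 9.65, 4.07, 14.8 and 3.64 CPM in condition AB. Again the groups did not overlap, and calf 3 was again the highest. Over both shRNAs the log2 fold change was -1.57 (SE 0.17, edgeR adjusted p = 0.000953), which is a level 0.336 times that in condition A, lower in 4 of 4 calves. It was rank 195 by fall among the 13632 genes. Within shScramble cells the value was -1.43 (SE 0.17, edgeR adjusted p = 0.0014) and within shCreb5 cells -1.82 (SE 0.23, edgeR adjusted p = 0.00161), each lower in 4 of 4 calves. Without the calf as a replicate block the call was lost over both shRNAs (log2 fold change -1.56, adjusted p = 0.102), within shScramble cells (-1.45, adjusted p = 0.114) and within shCreb5 cells (-1.77, adjusted p = 0.114).

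HBEGF was less regular. In shScramble cells it was at 7.38, 4.84, 7.98 and 6.02 CPM in condition A and at 20.3, 4.82, 7.03 and 7.24 CPM in condition AB. Calf 1 alone stood high in condition AB, at 432 counts against 93 to 128 in the other calves, and the groups overlapped. In shCreb5 cells it was at 2.73, 3.37, 2.91 and 2.34 CPM in condition A and at 3.91, 2.79, 5.58 and 3.90 CPM in condition AB. These groups overlapped too, with calf 2 lower in condition AB and the others higher. Over both shRNAs the log2 fold change with TGFβ2 was 0.48 (SE 0.22, edgeR adjusted p = 0.142, higher in 3 of 4 calves), so no change passed the test, and without calf 1 it was 0.18 (adjusted p = 0.456). Within shScramble cells it was 0.43 (SE 0.26, edgeR adjusted p = 0.292, higher in 2 of 4 calves) and 0.04 without calf 1. Within shCreb5 cells it was 0.48 (SE 0.23, edgeR adjusted p = 0.157, higher in 3 of 4 calves), and without calf 2 it reached 0.72 (adjusted p = 0.0339).

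IGFBP6 showed no TGFβ2 response past the test, and its levels differed between calves. In shScramble cells it was at 19.2, 9.77, 3.75 and 13.0 CPM in condition A and at 14.4, 7.77, 5.66 and 6.65 CPM in condition AB. In shCreb5 cells it was at 23.5, 14.3, 8.99 and 41.4 CPM in condition A and at 19.7, 12.7, 14.2 and 34.7 CPM in condition AB. Groups overlapped in both, and calf 3 moved up with TGFβ2 where the other calves moved down. The log2 fold change over both shRNAs was -0.11 (SE 0.16, edgeR adjusted p = 0.634, lower in 3 of 4 calves). Within shScramble cells it was -0.30 (SE 0.22, edgeR adjusted p = 0.379) and within shCreb5 cells -0.03 (SE 0.16, edgeR adjusted p = 0.894), each lower in 3 of 4 calves. The shScramble value moved to -0.55 without calf 3 (edgeR adjusted p = 0.0892) and to -0.09 without calf 4 (edgeR adjusted p = 0.814).

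Of the 4 genes, TRH was thus called higher and PDGFD lower with TGFβ2, while HBEGF and IGFBP6 were called in neither direction. All 4 passed the filter on low counts in the TGFβ2 comparisons, TRH through its counts in condition AB, a filter that favours a gene that is high in that condition. The choice of TRH by the knockdown favours the same condition.

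**Figure D2:**
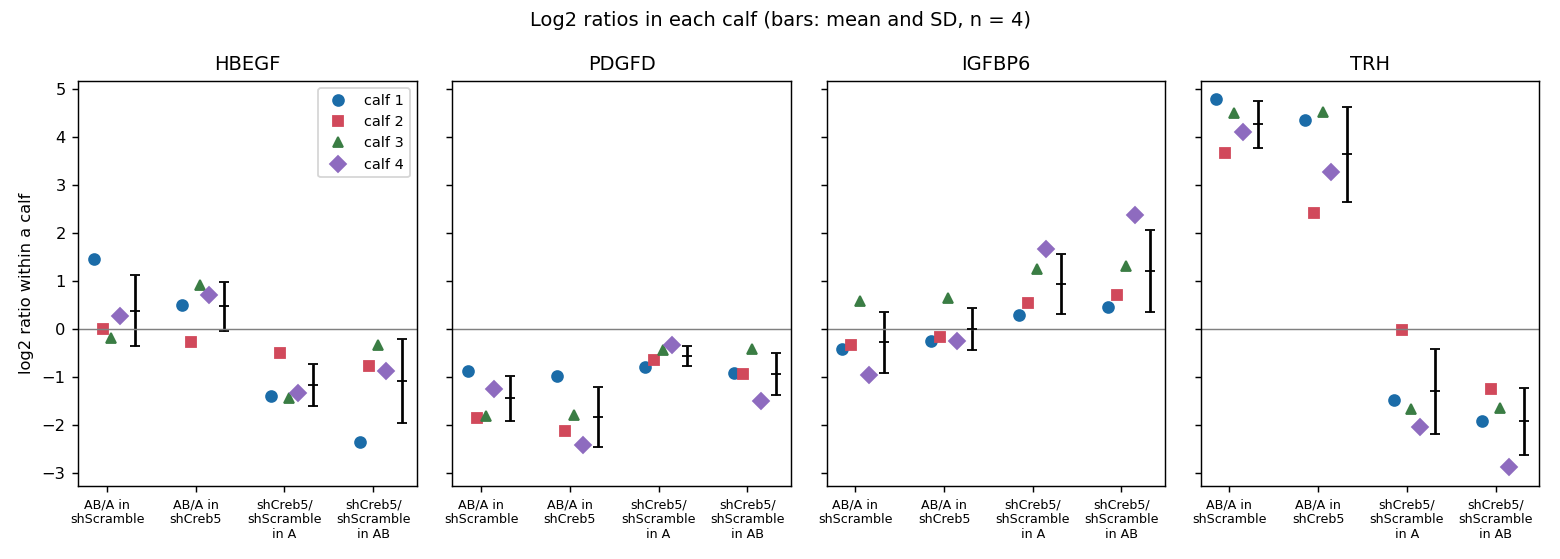
Log2 ratio within each calf (vertical axis, from log2 CPM with a prior count of 2) for TGFβ2 in shScramble and in shCreb5 cells and for shCreb5 against shScramble in conditions A and AB (horizontal axis). Points are calves, and black bars are the mean and SD (n = 4). TRH lies above 0 for TGFβ2 in all 8 pairs and PDGFD below 0 in all 8, whereas HBEGF and IGFBP6 lie on both sides. The prior count pulls the ratios of TRH toward 0.

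Next, the values that chose the genes are given as a description. HBEGF was lower with shCreb5 in every calf, with log2 ratios of -1.40, -0.51, -1.43 and -1.32 in condition A and of -2.35, -0.77, -0.33 and -0.88 in condition AB for calves 1 to 4. The fitted log2 fold change was -1.19 (SE 0.20) in condition A, where the shRNA groups did not overlap, and -1.14 (SE 0.32) in condition AB, where they did. Leaving out calf 1 moved the latter to -0.69. PDGFD was lower with shCreb5 by -0.80, -0.65, -0.43 and -0.34 in condition A and by -0.91, -0.93, -0.43 and -1.50 in condition AB, with fitted values of -0.55 (SE 0.11) and -0.94 (SE 0.18). The groups overlapped in both conditions, with calf 3 under shCreb5 above calves 1, 2 and 4 under shScramble in condition A.

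IGFBP6 was the gene that stood higher with shCreb5. Its log2 ratios were 0.29, 0.54, 1.24 and 1.66 in condition A and 0.45, 0.70, 1.31 and 2.37 in condition AB, so calf 4 had the highest and calf 1 the lowest in both. The fitted log2 fold changes were 0.93 (SE 0.24) and 1.18 (SE 0.29), and the groups overlapped. Without calf 4 they were 0.64 and 0.80.

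TRH was too low in condition A to pass the filter on low counts there, with 39 counts summed over the shScramble libraries and 12 over the shCreb5 libraries, a ratio of 0.320 after scaling by the TMM library sizes. Calf 2 had 7 counts with either shRNA. In condition AB TRH was lower with shCreb5 in every calf, by log2 ratios of -1.91, -1.26, -1.64 and -2.88, and the fitted value was -1.91 (SE 0.25). The groups overlapped, since calf 3 with shCreb5 was above calf 2 with shScramble.

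No gene tested in the main fit passed an adjusted p of 0.05 for the knockdown by edgeR, 0% of 12922 in condition A and 0% of 12664 in condition AB. When low counts were left unfiltered, edgeR called 17 genes in AB, CREB5 among them (adjusted p = 0.0181), and 0 in A. At an unadjusted p under 0.05 there were 1144 and 1078 genes, and DESeq2 called 79 and 55. HBEGF, PDGFD and TRH were lower with shCreb5 in 8 of 8 pairs of libraries, TRH in calf 2 in condition A by 0.02 on the log2 scale, and IGFBP6 was higher in 8 of 8. Among all genes 1.58% were lower and 1.36% higher in 8 of 8 pairs, and since this contrast chose the genes, nothing is read from the count.

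The order of the group means differed between the genes. HBEGF was highest in shScramble cells in condition AB (9.86 CPM ± 7.07, SD, n = 4), followed by shScramble in A (6.55 ± 1.41), shCreb5 in AB (4.04 ± 1.15) and shCreb5 in A (2.83 ± 0.426). The first pair in that order differed by less than its spread. PDGFD ran from shScramble in A (39.3 CPM ± 20.9) through shCreb5 in A (27.3 ± 16.4) and shScramble in AB (14.2 ± 5.89) to shCreb5 in AB (8.05 ± 5.29), of which the first 2 steps were smaller than the SD of the higher group and the last slightly larger. IGFBP6 had both shCreb5 groups on top, at 22.0 CPM ± 14.2 in A and 20.3 ± 10.1 in AB, above 11.4 ± 6.45 and 8.62 ± 3.95 with shScramble, and within each shRNA the conditions differed by less than the SD. TRH fell from 11.6 CPM ± 6.40 with shScramble in AB to 3.23 ± 2.21 with shCreb5 in AB, 0.458 ± 0.196 with shScramble in A and 0.146 ± 0.138 with shCreb5 in A.

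The spread of each gene over the 16 libraries was divided between calf, shRNA and TGFβ2 as shares of the sum of squares of log2 CPM, without a test. TGFβ2 took 76.0% for TRH and 53.5% for PDGFD, against 8.0% for HBEGF and 0.6% for IGFBP6. The calf took 42.5% for IGFBP6 and 29.3% for PDGFD, but 13.0% for HBEGF and 6.6% for TRH. The shRNA, which chose the genes, took 56.0% for HBEGF, 36.3% for IGFBP6, 12.6% for TRH and 11.2% for PDGFD. For comparison, the medians over 13372 genes were 46.2% for the calf, 11.7% for TGFβ2 and 2.4% for the shRNA.

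**Figure D3:**
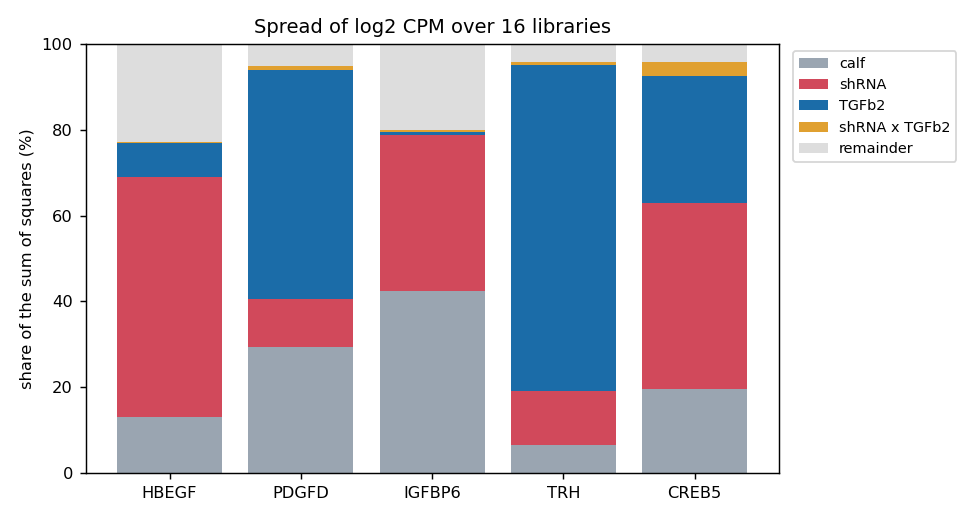
Share of the sum of squares of log2 CPM over 16 libraries (vertical axis, %) for each gene and CREB5 (horizontal axis), divided into calf, shRNA, TGFβ2, their product and the remainder. TGFβ2 has the widest part for TRH (76.0%) and PDGFD (53.5%), the shRNA for HBEGF (56.0%) and the calf for IGFBP6 (42.5%).

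The families of the 4 genes were read next in the TGFβ2 response over both shRNAs. Symbols were at hand for fewer than 80% of every family list, and they come from lists ordered by the knockdown difference, so the counts describe the genes matched and not the families. They are read against all 13632 genes tested, of which 15.6% were called higher and 15.1% lower with a median log2 fold change of -0.01, and with so few genes matched a count of 1 is not a result about a family. The directions below were the same with RLE scaling and with DESeq2. Without the calf as a replicate block, 18 of the 23 called among 27 other genes (CREB5, the markers and the family genes) lost their call.

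Among EGF family ligands 3 of 11 were matched, and 0 rose and 1 fell (median -0.71). BTC, betacellulin, another ligand of the EGF receptor, fell by a log2 fold change of -1.08 (SE 0.13, edgeR adjusted p = 0.00151, lower in 8 of 8 pairs), from 51.2 to 21.0 CPM in shScramble cells. Of the receptors and sheddases 4 of 10 were matched, and 1 rose and 0 fell (median 0.07). ADAM12, a metalloprotease that sheds HBEGF, rose by 1.13 (SE 0.20, edgeR adjusted p = 0.00541, higher in 8 of 8 pairs). ERBB3, a partner receptor without strong kinase activity, was low, at 4 to 52 counts, with a log2 fold change of 0.08 (SE 0.21, edgeR adjusted p = 0.802, higher in 4 of 8 pairs).

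The list of ERK feedback genes holds genes induced by ERK signals, among them inhibitors of the pathway and transcription factors. Of 15 on the list 7 were matched, and 1 rose and 4 fell (median -0.65). The phosphatase DUSP4 fell by -1.15 (SE 0.23, edgeR adjusted p = 0.0091), at 7 to 57 counts, and SPRY4, a Sprouty inhibitor, by -0.90 (SE 0.14, edgeR adjusted p = 0.00387), both lower in 8 of 8 pairs. ETV4, an ETS transcription factor, fell by -0.86 (SE 0.18, edgeR adjusted p = 0.0106, lower in 8 of 8 pairs). The phosphatase DUSP5 fell by -0.65 (SE 0.20, edgeR adjusted p = 0.043, higher in 1 of 8 pairs), a call lost without calf 1 (-0.58, adjusted p = 0.119), calf 3 (-0.46, adjusted p = 0.19) or calf 4 (-0.65, adjusted p = 0.138). PHLDA1 rose, by 1.30 (SE 0.16, edgeR adjusted p = 0.00135, higher in 8 of 8 pairs). Within shScramble cells 1 rose and 2 fell, where 10.7% of all genes were called higher and 9.15% lower. SPRY4 (-0.43, edgeR adjusted p = 0.0878) and DUSP5 (-0.38, edgeR adjusted p = 0.285) did not pass there. Within shCreb5 cells 1 rose and 4 fell, against 15.9% and 14.5%. SPRY4 was at -1.29 (edgeR adjusted p = 0.00391) and DUSP5 at -0.89 (edgeR adjusted p = 0.0118). Whether these responses differ was not tested.

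In the PDGF family 3 of 10 were matched, and 1 rose and 2 fell, PDGFD included (median -1.10). PDGFRB, the receptor that PDGFD binds, fell with its ligand, by -1.10 (SE 0.11, edgeR adjusted p = 0.000669, lower in 8 of 8 pairs), from 68.1 CPM ± 31.5 to 37.8 ± 17.1 (SD, n = 4) in shScramble cells. PLAT, tissue plasminogen activator, rose by 0.74 (SE 0.11, edgeR adjusted p = 0.00242, higher in 8 of 8 pairs).

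In the IGF family 8 of 17 were matched, and 0 rose and 3 fell (median -0.39). IGFBP3, the main carrier of IGFs in blood, fell by -2.25 (SE 0.39, edgeR adjusted p = 0.00542, lower in 8 of 8 pairs), and by -2.85 without calf 4 and -1.76 without calf 1, whereas IGFBP6 did not pass. PAPPA2, a protease of IGF binding proteins, fell by -1.68 (SE 0.37, edgeR adjusted p = 0.0134, higher in 2 of 8 pairs), but it had 1 to 69 counts and the call was lost without calf 1 (-1.24, adjusted p = 0.0608). Both higher pairs were in shScramble cells, where PAPPA2 did not pass the filter for edgeR and DESeq2 gave adjusted p = 0.874. Within shCreb5 cells it fell by -2.10 (SE 0.39, edgeR adjusted p = 0.0066). Whether these responses differ was not tested. The receptor IGF1R fell by -0.47 (SE 0.09, edgeR adjusted p = 0.00689, lower in 8 of 8 pairs).

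Of the genes that process or receive TRH 4 of 9 were matched, TRH among them, and 1 rose, TRH itself, and 0 fell (median -0.03). PAM, which amidates peptides such as TRH, was abundant, at 12977 to 32755 counts, and did not pass by edgeR (log2 fold change -0.26, SE 0.10, edgeR adjusted p = 0.084, higher in 1 of 8 pairs), although DESeq2 gave adjusted p = 0.028. PAM falls outside the rule for named genes and was picked after its values were seen. The receptor TRHR was not analysed here.

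Known TGFβ response genes were read as a description. Of 11, 7 were matched, and 5 rose and 0 fell. TGFBI, a secreted matrix protein, rose by 3.91 (SE 0.44, edgeR adjusted p = 0.00108), LTBP2, a latent TGFβ binding protein relative, by 1.34 (SE 0.20, edgeR adjusted p = 0.00289), SKIL, a repressor of SMAD proteins, by 1.06 (SE 0.10, edgeR adjusted p = 0.000586) and TGIF1 by 0.70 (SE 0.08, edgeR adjusted p = 0.00119), each higher in 8 of 8 pairs. The fifth, SKI, lies outside the rule for named genes and rose by 0.34 (edgeR adjusted p = 0.0142), a call lost without calf 3 (0.34, adjusted p = 0.0561).

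**Figure D4:**
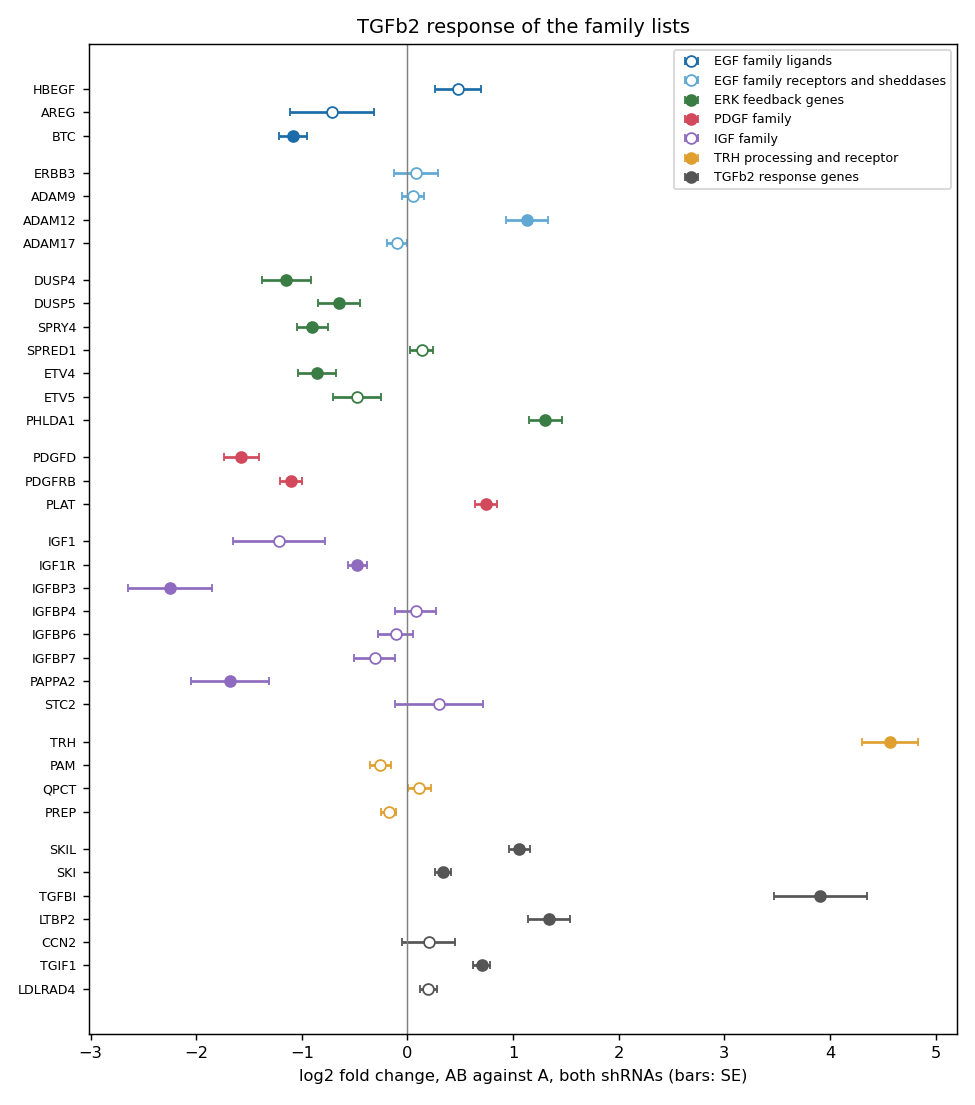
Log2 fold change of condition AB against A over both shRNAs (horizontal axis, bars are SE) for the matched genes of each family list (vertical axis, coloured by list). Filled points passed an edgeR adjusted p of 0.05 and open points did not. TRH at 4.57 and TGFBI at 3.91 lie farthest to the right, and IGFBP3 at -2.25 farthest to the left.

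For the knockdown, edgeR called no matched family gene in either condition, the 4 genes being left without a test. By DESeq2, 79 of 12533 genes were called in condition A and 55 of 13188 in AB. The symbols come from lists ordered by this same difference, which favours calls among matched genes. The calls below are therefore a description. DESeq2 called SPRY4 higher (log2 fold change 0.79 by edgeR, DESeq2 adjusted p = 0.0157) and PHLDA1 lower (-0.65, DESeq2 adjusted p = 0.0041) in condition A. Of the TGFβ response genes, it called CCN2 lower there (-0.69, DESeq2 adjusted p = 0.0359), a gene named after its values were seen. In condition AB it called PDGFRB (-0.59, DESeq2 adjusted p = 0.0217) and PLAT (-0.70, DESeq2 adjusted p = 0.0133) lower.

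Markers of other cells, or of dedifferentiated cells, moved with TGFβ2. CD68, a macrophage gene and 1 of 4 blood and macrophage markers matched, was at 9.95 CPM ± 9.97 (SD, n = 4) in shScramble cells in condition A and 5.65 ± 6.43 in AB. It fell by a log2 fold change of -1.42 (SE 0.24, edgeR adjusted p = 0.00458, lower in 8 of 8 pairs), and was highest in calf 3 in every group, as PDGFD was. VWF, 1 of 4 endothelial markers matched, fell by -1.30 (SE 0.16, edgeR adjusted p = 0.00145, lower in 8 of 8 pairs) from 7.58 to 3.95 CPM in shScramble cells. Their part in the fall of PDGFD and PDGFRB was not tested, and in these bulk libraries fewer cells of a type and less RNA per cell cannot be told apart. THY1 and COL3A1, 2 of 4 matched markers of fibroblasts or dedifferentiated cells, rose by 1.22 (SE 0.09, edgeR adjusted p = 0.000327) and 1.17 (SE 0.13, edgeR adjusted p = 0.00103), and their part in the rise of TRH was not tested. Fibroblasts and dedifferentiated chondrocytes cannot be told apart by these 2 genes in bulk libraries. Between the shRNAs, THY1 gave 1.08 (edgeR adjusted p = 0.509, DESeq2 adjusted p = 0.00711) in condition A and 0.72 (edgeR adjusted p = 0.599) in AB and was higher with shCreb5 in 7 of 8 pairs. Like IGFBP6 it was highest in calf 4 under shCreb5, at 251 CPM in A and 545 CPM in AB. COL3A1 gave -0.27 and -0.28, CD68 0.86 and 0.01, and VWF 0.72 and -0.01 in A and AB, and CD68 and VWF were higher with shCreb5 in 4 of 4 calves in A. The part of these markers in the difference of IGFBP6 was not tested. SNAP25, 1 of 4 neuroendocrine markers matched, had 2 to 48 counts and gave 0.47 (SE 0.35, edgeR adjusted p = 0.342). No hypertrophic, fat or muscle marker was matched.

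The genes with a symbol that followed each gene most closely over the 16 libraries were named by Pearson's r of log2 CPM, as a description. The libraries share 4 calves and the same treatments, and 3103 of the 13371 other genes had a symbol. The r includes the shRNA difference that chose the 4 genes, and the symbols come from lists ordered by that same difference. Both favour close genes that also differ between the shRNAs, so nothing is read from the names. TRH was followed by GRK5 (r = 0.96), CPXM2 (r = 0.94) and KCNQ3 (r = 0.93), and PDGFD by GATA3 (r = 0.95), SEMA4B (r = 0.92) and ABCC3 (r = 0.92). IGFBP6 was followed by CRYBG1 (r = 0.86), LMO7 (r = 0.84) and PARP1 (r = 0.83), and HBEGF by RERG (r = 0.77), TGFBR1 (r = 0.76) and GADL1 (r = 0.73).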

How the data were processed

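RNA of 16 libraries was sequenced single-end by the authors, quantified with Salmon against bovine UMD3.1 and summed to genes, and the deposited values are estimated counts (expected counts), rounded to whole numbers. The sequencing kit and RNA quality of each library were not used here. Gene symbols came from lists the study ordered by the knockdown difference, of which the values were not used, and 46 list entries were matched. One gene of the TGFβ response list is not reported here; it was taken out of that list for a reason other than its values, which had been seen.

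Counts were tested with edgeR 4.0.16 in R 4.3.3 (TMM, quasi-likelihood, Benjamini-Hochberg over all genes tested) with the calf as a block, and with DESeq2 1.42.0 and limma 3.58.1 as alternatives. Genes were kept by filterByExpr with the compared groups. A first fit had set this filter by the design matrix, and its calls were seen before the groups were taken instead, so that fits with and without the block test the same genes; the earlier filter is given as an alternative chosen after seeing the data. The SE is the log2 fold change over the square root of the F statistic. Calves pair the libraries by design, and deviations from group means correlated within calves (24 pairs, r from 0.132 to 0.837, median 0.670). No pair of libraries of a group agreed within sampling noise. The scripts were checked on simulated counts.

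The named genes were CREB5, the 4 genes, the family genes called with TGFβ2 (at most 4 in each direction for a list), the receptors and the 3 closest genes of each. The matched markers are given beside them. Members and lists were chosen with earlier results of these data known.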

Additional observations from a re-analysis of the deposited data

Results flagged for a closer look

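In 3 of the 36 sets of 4 values examined, 1 calf stood apart from the other 3. The sets include ratios between the shRNAs, the contrast that chose the genes, so nothing is read from the count. The HBEGF log2 ratio of shCreb5 to shScramble in condition A was -0.51 in calf 2, against -1.43 to -1.32 in the others. These are values that chose the gene and are given as a description. PDGFD in shCreb5 cells in condition A was at a log2 CPM of 5.70 in calf 3, against 4.19 to 4.31. The IGFBP6 log2 ratio of AB to A in shCreb5 cells was 0.65 in calf 3, against -0.26 to -0.17.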

How the results depend on the processing

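The TGFβ2 calls of TRH kept their direction and passed the threshold under every alternative that gave a value, with a log2 fold change over both shRNAs from 4.36 to 4.91 and an adjusted p of at most 0.0107. With shScramble it ran from 4.45 to 4.78 (adjusted p at most 0.00581) and with shCreb5 from 4.01 to 5.31, with an adjusted p of 0.0468 without the replicate block. PDGFD kept its direction, from -1.80 to -1.43, and lost its call only without the replicate block (-1.56, adjusted p = 0.102). HBEGF (0.18 to 0.68) and IGFBP6 (-0.32 to -0.02) passed under none over both shRNAs. Within shCreb5 cells IGFBP6 turned to 0.03, 0.00 and 0.06 without calves 1, 2 and 4, and leaving out a calf gave -0.24 to 0.06. HAPLN1 turned to -0.02 without the replicate block and without calf 1 (-0.02 to 0.27 over the calves), and ERBB3 to -0.10 without calf 4 (-0.10 to 0.21).

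Without the replicate block 347 genes were called over both shRNAs in place of 4189, 202 in place of 2556 with shScramble and 194 in place of 3884 with shCreb5, and 18 of the 23 called among 27 other genes (CREB5, the matched markers and the family genes of the rule, without the closest genes) lost their call. COL11A1 passed with no filter, limma-voom, all 16 libraries and without calf 2, and DESeq2 also called PAM and IGF1 (adjusted p = 0.0421). PAM passed with all 16 libraries too, and SKI lost its call without the block. Leaving out a calf gave 2556 to 3578, 1366 to 1926 and 1962 to 3829 genes, in fits with fewer libraries. For the knockdown, edgeR called 0 genes in either condition, DESeq2 79 in A and 55 in AB, the fit with no filter 17 in AB and limma-voom 1 in AB, and leaving out a calf gave 0 to 1 in A and 0 to 2 in AB; the cause was not tested. In AB, CD68 turned to -0.01 without the block and to -0.04 without calf 2 (-0.04 to 0.05 over the calves), and VWF to 0.04, 0.02 and 0.02 without calves 1, 3 and 4 (-0.13 to 0.04). The low-count filter set by the design matrix, added after seeing the data, called 4245 genes over both shRNAs and changed no call of those 27 genes. Low counts limit TRH in condition A.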
